A study of Mus musculus with 6 samples.

Results

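The genes described here encode the nuclear subunits of the mitochondrial respiratory chain and ATP synthase, with some of their assembly factors. The rule took every gene symbol that starts with Nduf, Uqcr, Atp5 or Cox followed by a digit from 4 to 8. A member also needed at least 30 counts over the 6 libraries after transcript rows were summed per symbol. This rule was chosen with earlier results of these data known. Of 24454 symbols in the deposited table, 88 carried such a name and 69 reached the minimum. These were 31 subunits of complex I, 7 complex I assembly factors (the Ndufaf genes), 8 subunits of complex III, 11 of complex IV, 10 of ATP synthase (complex V) and 2 genes named for ATP synthase factors, Atp5s and Atp5sl.

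The respiratory chain of the inner mitochondrial membrane passes electrons from NADH through complex I (NADH dehydrogenase), complex III (cytochrome c reductase) and complex IV (cytochrome c oxidase) to oxygen and pumps protons, and ATP synthase uses the proton gradient to make ATP. Nuclear genes encode most subunits, and mitochondrial DNA encodes the remaining ones, which were not analysed here. Macrophages exposed to bacterial endotoxin are known to lower respiration and raise glycolysis, and complex I is a known site of their reactive oxygen production.

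The libraries were made from peritoneal macrophages, which patrol the abdominal cavity, taken from wild-type male C57BL6/J mice aged 6 to 8 weeks and kept in culture. One group received vehicle for 5 h, the next received the endotoxin LPS at 10 ng/ml for 4 h, and the last received SGA360, which binds the aryl hydrocarbon receptor (AHR), at 10 µM for 1 h and then the same LPS treatment. Each group had 2 libraries of polyA-enriched RNA, and no pretreatment with vehicle is recorded for the LPS group, so an effect of pretreatment and one of SGA360 cannot be told apart. Whether the paired libraries are different mice, different dishes or repeats of 1 RNA is not recorded, so a p-value here reflects only the scatter of these samples, which may be technical.

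Library totals ranged from 7726973 to 9529817 counts. Vehicle replicate 1 stood apart, with a count in 10001 genes against 12282 to 12643 in the other libraries and 4.92% of its counts in the ribosomal RNA gene Rn45s against at most 0.684%. Macrophage markers summed to between 21070 and 26190 CPM (counts scaled to a shared library size) in every library, most of it Lyz2, with Itgam listed at 0 in a symbol of several rows. Of the 7 tested, 3 were called lower with LPS and 2 higher, from -2.39 for Fcgr1 to 2.98 for Cd14 on the log2 scale. Markers of B cells, T cells and neutrophils each summed to at most 33.3 CPM, and those of mast cells to between 74.16 and 87.9 CPM. In these lists Cd79b, Lck, S100a9, Ly6g and Kit were listed at 0. Each list holds at least 1 symbol of several rows, so its sum can be too low and does not show the cells to be absent. Of 8 mesothelial markers, none at 0, 3 were called lower with LPS, and their sum was 491.3 to 516.7 CPM in vehicle, 352.4 to 353.7 CPM in LPS and 345.8 to 364.7 CPM in SGA360+LPS. Fibroblast markers summed to 4680 to 5379 CPM in vehicle, 4418 to 4725 CPM in LPS and 4737 to 5208 CPM in SGA360+LPS. Of these 6 symbols 2 have several rows, so the sum can be too low, and Pdgfra had too few counts to test. The 5 tested ran from -0.60 to -0.04 with LPS and from -0.50 to 0.13 with SGA360+LPS against vehicle. In each comparison 1 was called, and Col3a1 was called lower. The part of these cells in the results below was not tested. In such bulk RNA, fewer cells of a type and less RNA per cell cannot be told apart.

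The 19 symbols below the minimum had at most 12 counts each, and 8 had none. They included Ndufs1, Ndufs8 and Ndufv2 of the complex I core, Cox4i1 and Cox7a2l of complex IV, and Atp5c1, Atp5f1, Atp5g1 and Atp5g3 of ATP synthase. Of these 19 symbols, 14 have several transcript rows in the table, whereas 67 of the 69 members have a single row, so the near absence of counts says nothing on how strongly these genes were expressed. The 5 with a single row were the complex IV isoform Cox4i2, with 2 counts in all, and Ndufs5 of complex I, Cox7b2, Cox8b and Cox8c, each with 0. Whether these few counts reflect a low level was not tested.

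The promoters of 58 members (250 bases before to 50 after the annotated start, from RefSeq, build GRCm38.p6) were searched on both strands for 5 motifs of factors known to act on respiratory genes. The palindrome of nuclear respiratory factor NRF1, which is the core GCATGCGC preceded by the letters GC, was present in 7 of the 58 (12.1%), against 2.03% of 7356 promoters of genes tested and 0.977% of all 27025 promoters. The core alone, counted also where it lies in the palindrome, was present in 19.0% of the members' promoters, 5.34% of those of genes tested and 2.8% of all. The YY1 motif AAGATGGC was in 13.8%, 5.15% and 2.88% of the same sets, the ETS motif CCGGAAG, bound by GABPA, in 22.4%, 19.4% and 9.12%, and the cAMP response element TGACGTCA in 6.9%, 3.25% and 1.88%. By complex, YY1 matches were in 6 of 27 promoters of complex I, 0 of 5 of complex III, 0 of 9 of complex IV and 1 of 9 of ATP synthase. In the same order, ETS matches were in 3 of 27 (11.1%), 2 of 5, 3 of 9 and 4 of 9. The short NRF1 core was in 3 of 27, 2 of 5, 1 of 9 and 3 of 9, and the palindrome in 1, 1, 1 and 2 of these. The cAMP response element was in 3, 1, 0 and 0.

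The following 5 promoters, picked after the values were seen, show complex I and other subunits side by side: Ndufa6 and Ndufb10, called lower in both treated groups, Atp5b and Cox8a, called higher in at least 1 of them, and Cox6a1, which has the full NRF1 palindrome and the highest level per length in complex IV. Each is given 5′ to 3′ on the gene's strand, and capitals mark motif matches. Ndufa6 lies at chr15:82354242-82354541 on the minus strand, with the short NRF1 core at base -83 from the start. Ndufb10 lies at chr17:24724374-24724673 (minus) and Atp5b at chr10:128083057-128083356 (plus), neither with a match. Cox8a lies at chr19:7217567-7217866 (minus), with ETS matches at bases -5 and 32, and Cox6a1 at chr5:115348909-115349208 (minus), with the palindrome at base -162 and an ETS match nearer the start.
Ndufa6: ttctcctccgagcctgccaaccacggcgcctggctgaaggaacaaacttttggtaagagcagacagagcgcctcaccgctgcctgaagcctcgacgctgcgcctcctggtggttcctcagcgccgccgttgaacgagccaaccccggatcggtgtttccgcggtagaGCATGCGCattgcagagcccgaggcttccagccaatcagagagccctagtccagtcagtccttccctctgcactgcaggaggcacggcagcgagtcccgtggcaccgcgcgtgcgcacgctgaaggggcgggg
Ndufb10: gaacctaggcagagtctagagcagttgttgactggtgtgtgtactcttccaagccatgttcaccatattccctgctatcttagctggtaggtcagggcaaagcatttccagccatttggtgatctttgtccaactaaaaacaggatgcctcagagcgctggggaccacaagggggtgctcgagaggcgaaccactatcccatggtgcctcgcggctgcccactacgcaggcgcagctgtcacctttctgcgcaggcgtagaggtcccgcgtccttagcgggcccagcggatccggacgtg
Atp5b: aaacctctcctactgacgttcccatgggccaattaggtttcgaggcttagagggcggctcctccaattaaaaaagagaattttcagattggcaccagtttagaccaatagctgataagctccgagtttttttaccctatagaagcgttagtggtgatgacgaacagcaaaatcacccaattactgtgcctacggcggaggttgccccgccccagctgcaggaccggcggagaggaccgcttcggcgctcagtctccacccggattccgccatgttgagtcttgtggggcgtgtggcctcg
Cox8a: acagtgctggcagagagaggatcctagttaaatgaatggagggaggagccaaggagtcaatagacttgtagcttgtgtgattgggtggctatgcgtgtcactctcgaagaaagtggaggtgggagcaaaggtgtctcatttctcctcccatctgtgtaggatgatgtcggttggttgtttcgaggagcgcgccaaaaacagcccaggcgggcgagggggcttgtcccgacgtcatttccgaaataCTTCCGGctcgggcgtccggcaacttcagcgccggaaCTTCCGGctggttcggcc
Cox6a1: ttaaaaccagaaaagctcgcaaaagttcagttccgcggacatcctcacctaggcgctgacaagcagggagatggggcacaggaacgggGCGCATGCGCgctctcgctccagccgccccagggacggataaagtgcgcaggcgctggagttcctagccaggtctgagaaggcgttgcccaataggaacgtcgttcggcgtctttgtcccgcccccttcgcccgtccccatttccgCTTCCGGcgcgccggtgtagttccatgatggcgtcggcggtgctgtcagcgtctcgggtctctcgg
A match is a description of the letters and not a binding site. Among the 11 members called against vehicle in either treated group, Ndufa6 held the short NRF1 core, Ndufc1 a YY1 match, and Ndufs3 and Cox8a ETS matches.

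Levels were compared between genes as CPM divided by exon length, averaged over the 6 libraries. Atp5b, the catalytic beta subunit of ATP synthase, had the highest level at 806.9 CPM per kb, followed by the complex IV subunits Cox6a1 (493.7), Cox8a (450.6) and Cox6b1 (447.3) and by Atp5l (414.8), a membrane subunit of ATP synthase, in the same unit. The median was 310.6 CPM per kb for ATP synthase, 292.0 for complex IV, 219.3 for complex III and 110.7 for complex I. Within complex I the order began with Ndufa4 at 280.3 CPM per kb, a protein first assigned to complex I and since placed with complex IV. By its symbol Ndufa4 is counted with complex I in all counts, sums and ratios here, as is Ndufa4l2. Assembly factors were far lower, with a median of 8.98 CPM per kb and a highest value of 20.8 for Ndufaf2. Muscle isoforms of complex IV were low beside their counterparts: Cox6a2 stood at 15.4 CPM per kb against 493.7 for Cox6a1, and Cox7a1 at 3.73 against 157.8 for Cox7a2. Cox6a2 overlaps an exon of Itgad on the opposite strand, and whether counting used strand is unknown, so its counts are uncertain. Ndufa4l2, a relative of Ndufa4 known from hypoxic cells, had 1.02 CPM per kb and too few counts (5 to 19 per library) for the test.

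**Figure D1:**
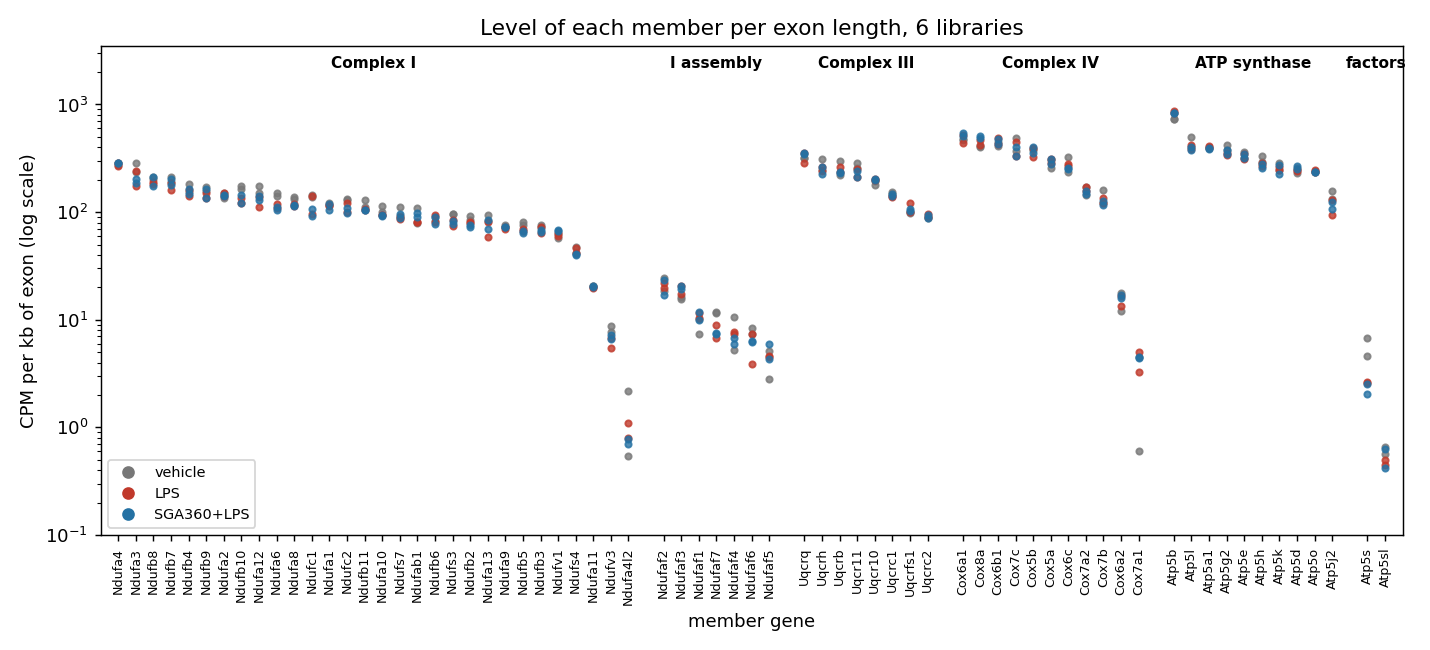
Level of 68 of the 69 members per exon length (CPM per kb, log scale) in each of the 6 libraries, coloured by group and ordered by complex. Atp5b is highest, the complex I assembly factors lie below 30 CPM per kb, and the groups differ far less than the genes do.

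Most complex I subunits had a lower mean level in LPS than in vehicle, by small amounts. Of 30 subunits tested, 27 had a log2 fold change below 0 against vehicle, with a median of -0.19 (87.8% of the vehicle level), and 4 passed the test. In SGA360+LPS, set against the same vehicle libraries, 26 of 30 were below 0, with a median of -0.15, and 5 passed. Over all 9389 genes tested the medians were -0.01 and -0.01, and 50.6% of genes were below 0 in both comparisons. The 4 calls of 30 (13.3%) compare with 17% of all genes tested called lower with LPS, so complex I had no more lower calls than genes at large, and the 5 of 30 (16.7%) compare with 15.2% in SGA360+LPS. Both LPS libraries lay below both vehicle libraries for 20 of the 31 subunits, against 32.7% of genes tested, and both above for 0 against 33.1%. In SGA360+LPS, 16 lay below and 1 above, against 32% and 32.9%.

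Ndufb10, a subunit of the membrane arm of complex I, had 111.8 and 105.9 CPM in vehicle replicates 1 and 2, 86.6 and 78.4 CPM in LPS, and 92.4 and 77.7 CPM in SGA360+LPS. All treated libraries were below both vehicle libraries. Its log2 fold change was -0.40 (SE 0.105, adjusted p = 0.0133, edgeR's quasi-likelihood test) with LPS and -0.36 (SE 0.105, adjusted p = 0.0250) with SGA360+LPS. The gene spans chromosome 17 from 24722067 to 24724388 in mm10, with 639 bases of exon. Ndufa6, an accessory subunit of the matrix arm on chromosome 15 (82350139 to 82354291), had 85.4 and 79.4 CPM in vehicle, 66.6 and 62.0 CPM in LPS, and 63.2 and 59.5 CPM in SGA360+LPS. The treated libraries again lay below vehicle without overlap, with log2 fold changes of -0.36 (SE 0.097, adjusted p = 0.0158) and -0.43 (SE 0.097, adjusted p = 0.00709). These were the complex I subunits called in both comparisons.

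Ndufa12, another matrix arm subunit, had 99.7 and 84.9 CPM in vehicle, 78.9 and 63.6 CPM in LPS, and 73.8 and 79.2 CPM in SGA360+LPS. It was called lower with LPS (-0.38, SE 0.124, adjusted p = 0.0376), and the value with SGA360+LPS was -0.27 (adjusted p = 0.124). Ndufs3, a core subunit, had 90.2 and 91.4 CPM in vehicle, 79.4 and 71.1 CPM in LPS, and 78.0 and 74.2 CPM in SGA360+LPS. It was called lower with LPS (-0.27, SE 0.093, adjusted p = 0.0440), and the value with SGA360+LPS was -0.26 (adjusted p = 0.0599). For both genes all treated libraries lay below both vehicle libraries. Ndufs3 shares exon sequence with Kbtbd4 on the opposite strand, and both Ndufs3 and Ndufa12 have a near-identical pseudogene copy, so their counts are uncertain.

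The other 3 subunits called lower with SGA360+LPS belong to the membrane arm. Ndufc1 had 60.8 and 57.7 CPM in vehicle, 59.1 and 40.6 CPM in LPS, and 45.0 and 38.9 CPM in SGA360+LPS, so both SGA360+LPS libraries lay below both vehicle libraries (-0.50, SE 0.165, adjusted p = 0.0413) and overlapped with LPS. LPS replicate 1 lay within the vehicle range, and the value for LPS was -0.26 (adjusted p = 0.259). Ndufc2 (-0.34, adjusted p = 0.0406) and Ndufb5 (-0.27, adjusted p = 0.0475) were below vehicle in all treated libraries, with -0.25 and -0.20 for LPS, neither called. Ndufb5 overlaps Mrpl47 on the opposite strand, and whether counting used strand is unknown from the sources at hand. No subunit of complex I called in either comparison differed by more than 1.5-fold.

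The 26 accessory subunits tested, with Ndufa4 counted among them by name, had a median of -0.19 with LPS. Accessory subunits surround the redox-active core of complex I. Among core subunits, Ndufv1, which binds NADH, was at 0.05 and Ndufs7, which carries the last iron-sulfur cluster, at -0.20 (adjusted p = 0.195). Ndufs4, an accessory subunit whose loss causes complex I deficiency, was at -0.03, with 73.2 and 64.5 CPM in vehicle and 70.9 and 64.0 CPM in LPS. The lowest value among subunits with no call was -0.43 for Ndufv3 (SE 0.209), a symbol with several rows.

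**Figure D2:**
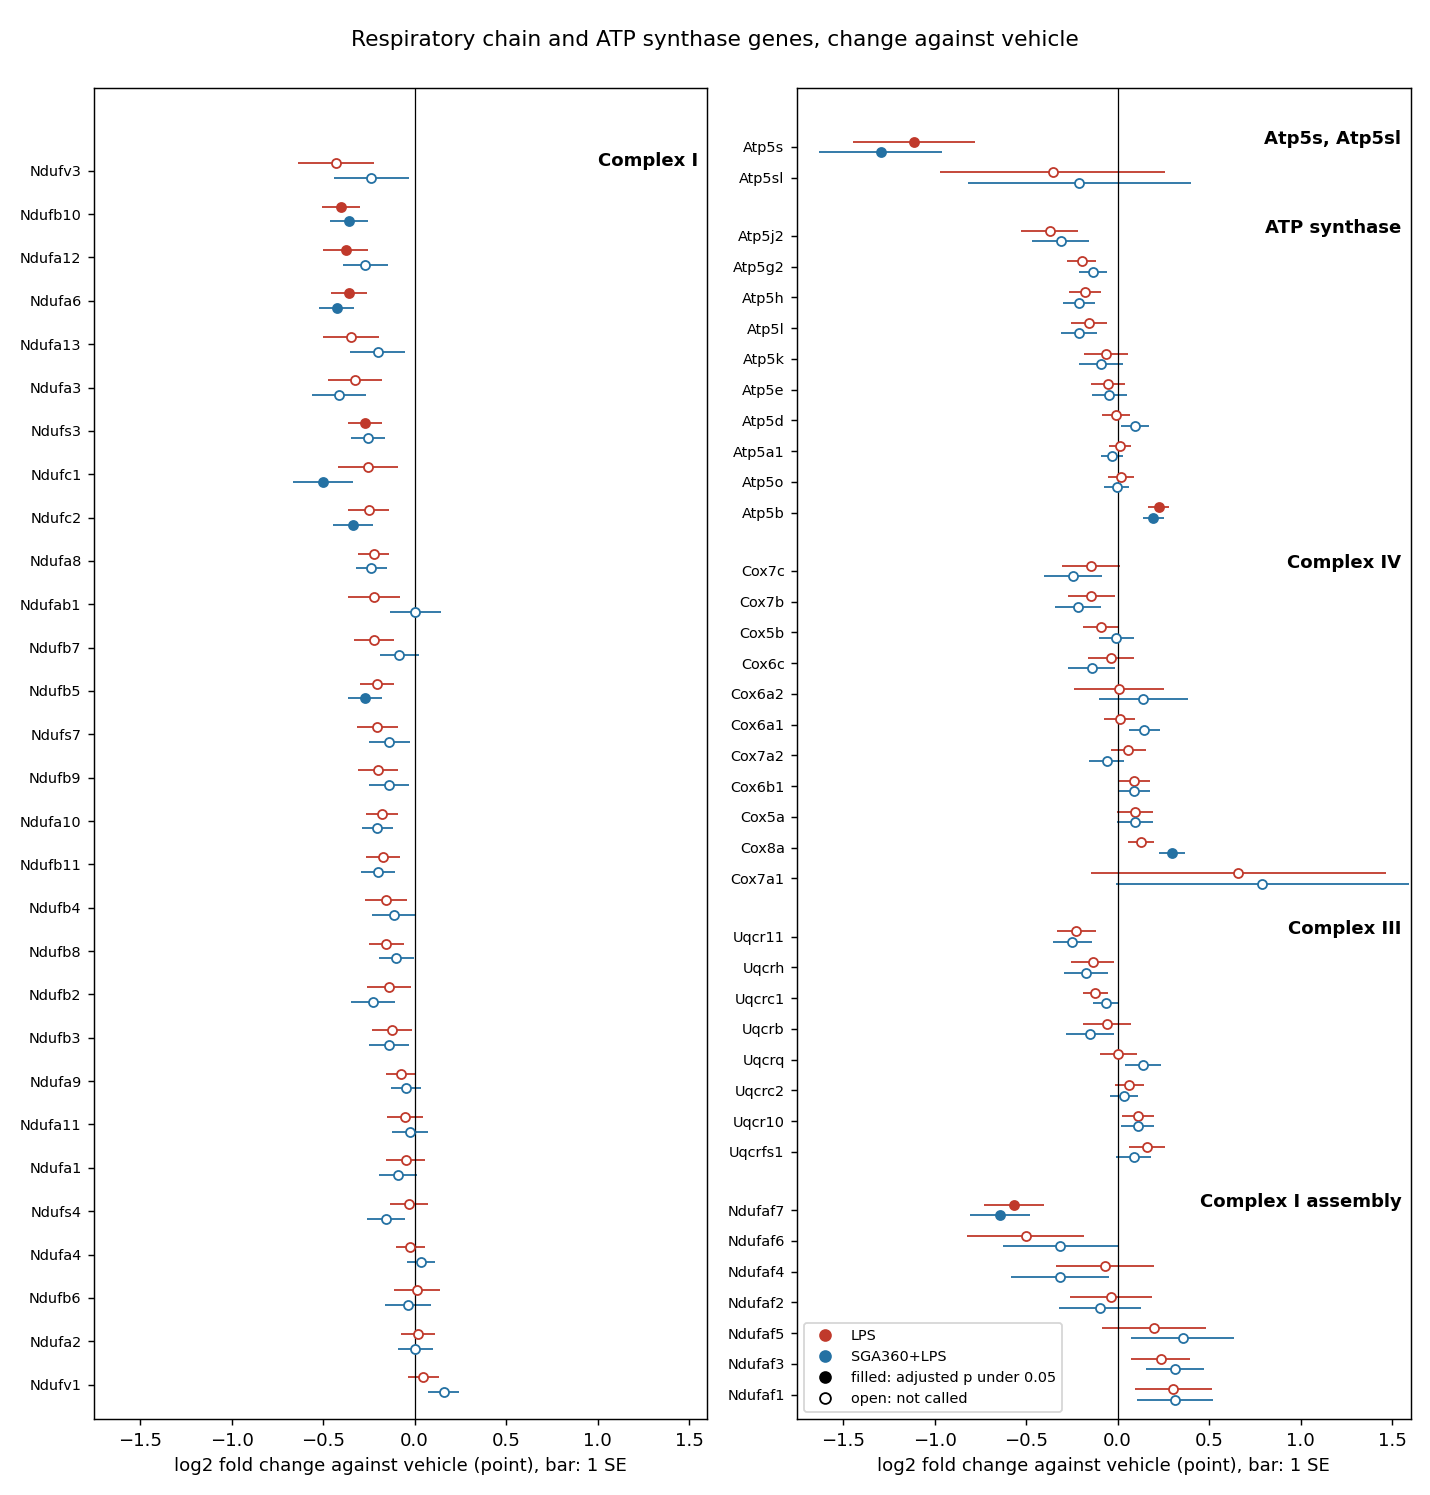
Log2 fold change against vehicle (points, with bars of 1 SE) for 67 of the 68 members tested, by complex, for LPS (red) and SGA360+LPS (blue); filled points passed an adjusted p under 0.05. Complex I lies mostly left of 0 in both treated groups, complexes III and IV lie on both sides, and Atp5b and Cox8a are the filled points to the right.

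Assembly of complex I was covered by 7 Ndufaf genes, of which 1 was called. Ndufaf7, a methyltransferase of complex I assembly, had 27.0 and 26.8 CPM in vehicle, 15.7 and 20.6 CPM in LPS, and 17.1 and 17.4 CPM in SGA360+LPS. It fell with LPS (-0.57, SE 0.165, adjusted p = 0.0223) and with SGA360+LPS (-0.64, SE 0.166, adjusted p = 0.0135), and no treated library reached the vehicle level. The other 6 factors lay between -0.50 (Ndufaf6) and 0.30 (Ndufaf1) with LPS, each with an SE of at least 0.160. Among 6 tested assembly genes of complex I not named Nduf, 2 were called lower with LPS: Nubpl, which supplies iron-sulfur clusters (-0.94, adjusted p = 0.0218), and Tmem126b (-0.83, adjusted p = 0.0148). Both were also called with SGA360+LPS (-0.78 and -0.78), and both had more CPM in vehicle replicate 1 than in replicate 2 (17.5 against 10.9 and 27.4 against 18.0). Without vehicle replicate 1, Nubpl lost its call in both comparisons and Tmem126b in that of SGA360+LPS. Both also lost it without LPS replicate 1 (with LPS) and without either SGA360+LPS replicate (with SGA360+LPS), and Nubpl also without either LPS replicate in both comparisons.

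Complex III had no call in either comparison by edgeR. Of its 8 subunits, 0 had an unadjusted p under 0.05 with LPS and 1 with SGA360+LPS, DESeq2 and limma-voom called 0 in either, and the medians were -0.03 and -0.02. Both medians were above 0 with no filter, without vehicle replicate 1 and without LPS replicate 2 (at most 0.06). Calls with LPS under other settings of edgeR were 1 lower with upper-quartile factors, 1 with the replicate block and 2 with library size only. Some also appeared without vehicle replicate 2. The shares of all genes called under these settings are not given here. Uqcrc1, a core protein, had 258.4 and 246.0 CPM in vehicle, 235.4 and 228.4 CPM in LPS, and 237.7 and 244.2 CPM in SGA360+LPS (-0.12, SE 0.067, adjusted p = 0.190 for LPS). Uqcrfs1, the Rieske iron-sulfur protein, leaned the other way, with 128.1 and 131.5 CPM in vehicle, 159.0 and 131.6 CPM in LPS, and 135.0 and 140.8 CPM in SGA360+LPS (0.16, SE 0.096, adjusted p = 0.230 for LPS). Uqcrc2, the other core protein, was at 0.06, and the lowest value was that of the small subunit Uqcr11 at -0.23 (adjusted p = 0.133).

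Complex IV had 4 of 11 subunits below 0 with LPS and a median of 0.01, which fell below 0 with upper-quartile factors (-0.08), with library size only (-0.12), with a filter of 5 CPM (-0.01) and without vehicle replicate 2 (-0.01). With LPS, edgeR, DESeq2 and limma-voom called 0 of the 11, and edgeR called 36.4% of all genes tested. Of the 11, 0 had an unadjusted p under 0.05. In LPS 0 lay wholly below vehicle and 1 wholly above, against 32.7% and 33.1% of genes tested. Leaving out a vehicle library gave some calls with LPS, for which the share of all genes is not given here. The log2 ratio of summed CPM was then 0.11 without vehicle replicate 1 and -0.06 without vehicle replicate 2. Cox8a, a small membrane-spanning subunit, had 223.6 and 221.6 CPM in vehicle, 232.3 and 254.5 CPM in LPS, and 267.9 and 279.1 CPM in SGA360+LPS. The 3 groups did not overlap, and the log2 fold change was 0.30 (SE 0.071, adjusted p = 0.00890) with SGA360+LPS and 0.13 (SE 0.071, adjusted p = 0.188) with LPS. Cox8a spans chromosome 19 from 7215158 to 7217616.

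The matrix-side subunits Cox5a and Cox5b were at 0.10 and -0.09 with LPS, and Cox6a1 at 0.01, with 258.8 and 250.9 CPM in vehicle, 278.5 and 235.6 CPM in LPS, and 289.9 and 274.0 CPM in SGA360+LPS. Cox7a2 was at 0.06 and Cox6a2 at 0.01. Cox7a1, the muscle isoform, had 2 and 16 counts in vehicle and 11 to 15 counts in each treated library, which left an SE of 0.808. Cox7c, Cox7b and Cox6c each had more CPM in vehicle replicate 1 than in any other library (221.2, 162.9 and 164.2), and none was called. The value of Cox6c with LPS turned on the vehicle pair: it was -0.035, but 0.23 (adjusted p = 0.0402) without vehicle replicate 1 and -0.23 (adjusted p = 0.0251) without vehicle replicate 2.

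ATP synthase differed between its subunits. Atp5b had 1389.8 and 1372 CPM in vehicle, 1581 and 1644 CPM in LPS, and 1575 and 1584 CPM in SGA360+LPS, so all treated libraries lay above vehicle. It rose by 0.22 on the log2 scale with LPS (SE 0.057, adjusted p = 0.0121) and by 0.19 with SGA360+LPS (SE 0.057, adjusted p = 0.0259), and stayed above 0 but uncalled with upper-quartile factors and with library size only (0.10 and 0.08 at the lowest). Atp5a1, the alpha subunit that alternates with beta in the catalytic head, had 955.7 and 989.3 CPM in vehicle, 960.8 and 1000.2 CPM in LPS, and 959.4 and 946.9 CPM in SGA360+LPS, with overlapping groups and log2 fold changes of 0.01 (SE 0.060) and -0.03 (SE 0.060). Atp5a1 overlaps Haus1 on the opposite strand.

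Of the remaining 8 ATP synthase subunits, 0 were called by edgeR, DESeq2 or limma-voom in either comparison, with 2 at an unadjusted p under 0.05 with LPS and 1 with SGA360+LPS. Under other settings of edgeR some were called lower with LPS: 1 with no filter, 1 with a filter of 5 CPM and 2 with upper-quartile factors. Lower calls were 2 with the replicate block and 4 with library size only. Some also appeared without vehicle replicate 2 and without LPS replicate 1. The shares of all genes called under these settings are not given here. Atp5g2 and Atp5j2 were each called lower in 5 of 19 alternatives. Values of the 8 with LPS ran from -0.37 for Atp5j2 (adjusted p = 0.0917) to 0.02 for Atp5o. Atp5g2, the only gene of the c ring above the minimum, had 273.6 and 245.0 CPM in vehicle and 230.3 and 222.3 CPM in LPS (-0.20, adjusted p = 0.0752). Atp5d and Atp5e, of the central stalk, were at -0.01 and -0.05. Atp5s, known as coupling factor B, had 10.1 and 6.87 CPM in vehicle, 3.86 and 3.94 CPM in LPS, and 3.05 and 3.81 CPM in SGA360+LPS. It fell by 1.11 (SE 0.333, adjusted p = 0.0250) and by 1.29 (SE 0.337, adjusted p = 0.0141) on the log2 scale, with no overlap and 24 to 90 counts per library. Atp5sl, at 1.01 to 1.56 CPM, was not called.

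**Figure D3:**
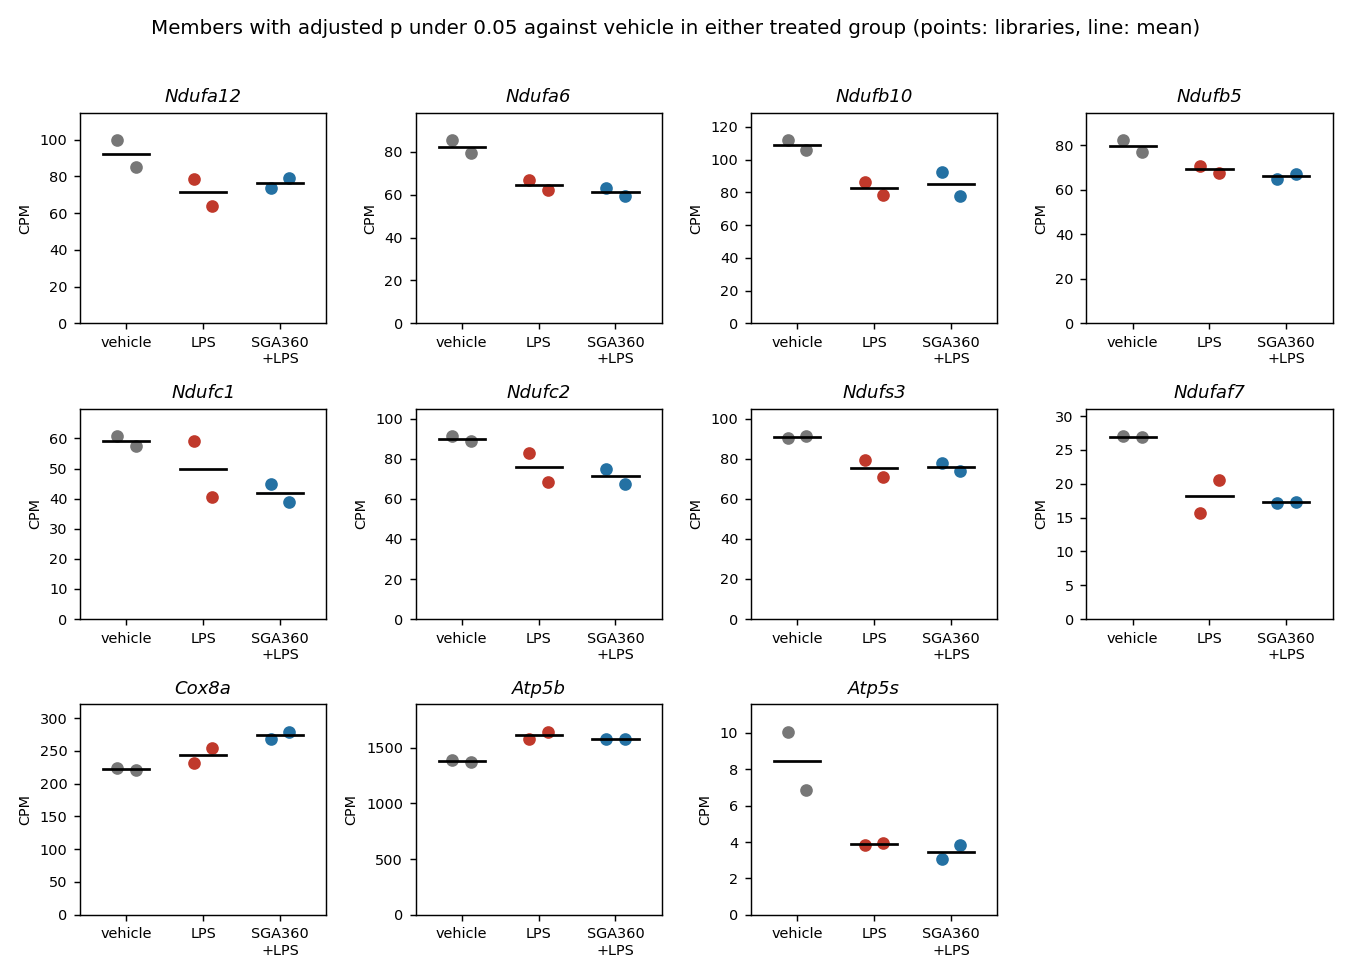
Level in CPM of the 11 members called against vehicle in either treated group, with 1 point per library and a line at the mean of each group (n = 2). The complex I genes, Ndufaf7 and Atp5s are lower in the treated groups, and Cox8a and Atp5b are higher.

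Over all complexes, 7 of the 68 members tested were called with LPS, 6 lower and 1 higher, against 36.4% of all genes tested (17% lower and 19.4% higher). With SGA360+LPS against vehicle 9 were called, 7 lower and 2 higher, against 33.1% (15.2% lower and 17.9% higher). Both shares lie below those of genes at large, and the members' median was -0.11 in both comparisons, which share their vehicle libraries. Of 3696 genes with a mean of at least 50 CPM, which include 55 members, 18.3% were called lower and 33.2% higher with LPS, and their median was 0.09. Both LPS libraries lay below both vehicle libraries for 29 members and above for 6, against 32.7% and 33.1% of genes, and for SGA360+LPS the counts were 24 and 8, against 32% and 32.9%. The number called with LPS rose without either vehicle library and fell without LPS replicate 2. The log2 ratio of the members' summed CPM with LPS, -0.03 with all libraries, was 0.0314 without vehicle replicate 1. It was -0.0510 without vehicle replicate 2 and 0.0262 without LPS replicate 2. Scaling by library size only lowers the median of all genes by 0.129 with LPS. It gave 21 lower and 0 higher calls, with a median of -0.31 for complex I and -0.12 for complex IV. The shares of all genes called under these settings are not given here, so these counts are not read as particular to the members.

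Each call of a member was lost without at least 1 library, and none changed sign. With LPS, Ndufb10 kept its call in 17 of 19 alternatives (-0.53 to -0.31), Atp5b in 15 (0.10 to 0.27) and Ndufa6 in 14 (-0.49 to -0.29), and all 3 lost it without LPS replicate 2, Ndufa6 also without LPS replicate 1 and without SGA360+LPS replicate 1. Ndufaf7 kept it in 13, Ndufa12 and Atp5s in 12 and Ndufs3 in 11, and these 4 lost it without at least 1 LPS library. They also lost it without either SGA360+LPS library, which enters this comparison through the shared spread, the set of genes tested and the scaling factors. Ndufa12 also lost it without vehicle replicate 1. With SGA360+LPS, Cox8a kept its call in 17 of 19 (0.18 to 0.35) and Ndufa6 in 17 (-0.54 to -0.36), followed by Atp5s (16), Ndufb10, Ndufc1 and Ndufaf7 (15), Atp5b (14), Ndufc2 (13) and Ndufb5 (7), and all 9 lost it without SGA360+LPS replicate 2. Of these, Ndufa6, Atp5s, Ndufc1, Ndufaf7, Atp5b, Ndufc2 and Ndufb5 lost it without replicate 1 of that group too, Ndufb10, Ndufc2 and Ndufb5 without either LPS replicate, and Ndufb5 without vehicle replicate 1.

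Summed levels give the balance of the complexes in each library, and their ratios within a library involve no scaling factor. Complex I subunits summed to 2709 and 2642 CPM in vehicle, 2493 and 2279.6 CPM in LPS, and 2488.5 and 2339 CPM in SGA360+LPS. Complex IV summed to 1823 and 1613 CPM in vehicle, 1814 and 1638 CPM in LPS, and 1816.5 and 1696 CPM in SGA360+LPS, so its groups overlapped. ATP synthase summed to 3805 and 3656 CPM in vehicle, 3863 and 3875.5 CPM in LPS, and 3874 and 3771 CPM in SGA360+LPS. The ratio of complex I to complex IV was 1.49 and 1.64 in vehicle, 1.37 and 1.39 in LPS, and 1.37 and 1.38 in SGA360+LPS, and that of complex I to ATP synthase was 0.712 and 0.723, 0.645 and 0.588, and 0.642 and 0.620. In both ratios all 4 treated libraries lay below both vehicle libraries. The ratio of complex I to complex III did likewise, from 2.18 and 2.31 in vehicle to between 2.02 and 2.11 in the treated libraries.

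**Figure D4:**
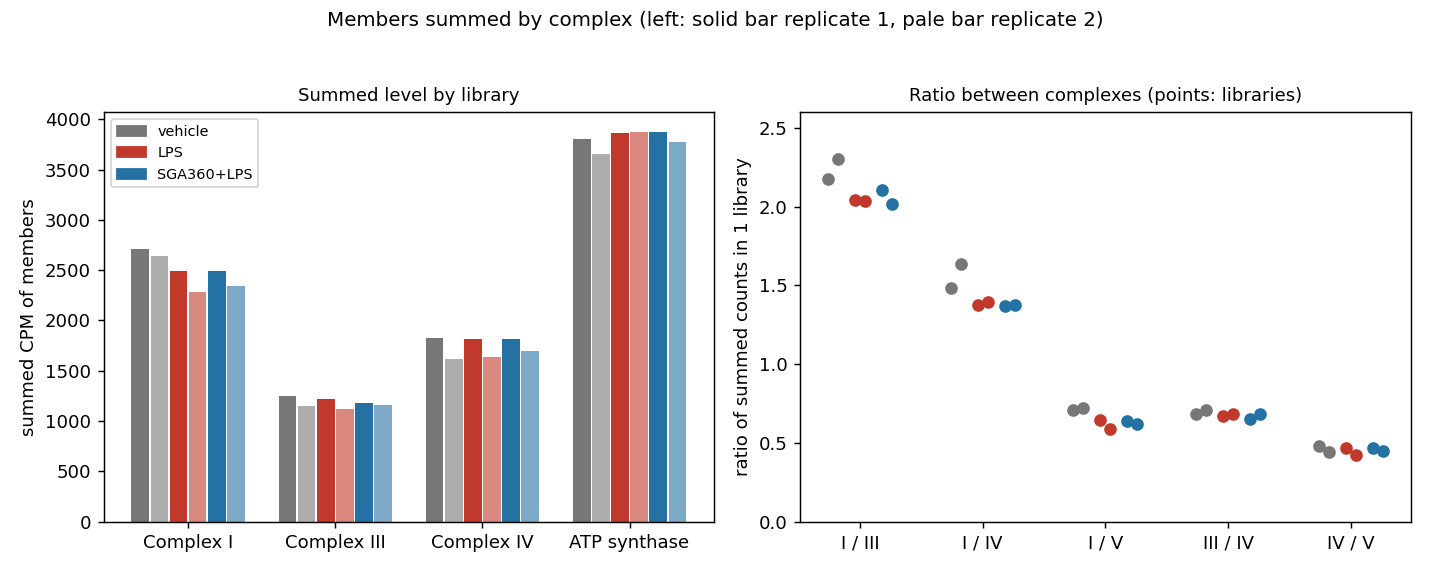
Left, summed CPM of the members of each complex in each library (solid bars, replicate 1; pale bars, replicate 2). Right, ratios of summed counts between complexes in each library, with the ratios of complex I to complexes III, IV and V lower in all 4 treated libraries than in both vehicle libraries.

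The members' transcripts are short, with a median exon length of 684 bases against 2777 for all genes tested, and short genes differed between replicates in every group. For genes of up to 700 bases the median log2 ratio of replicate 1 to replicate 2 was 0.14 in vehicle, 0.12 in LPS and 0.09 in SGA360+LPS over all genes, and 0.12, 0.15 and 0.14 over the 36 members of that length. Among genes of up to 700 bases the median change with LPS was -0.04 over all genes, -0.20 over the 15 complex I subunits and 0.01 over the 9 complex IV subunits. Of the 69 members, 27 have an exon that overlaps an exon of another gene in the GENCODE annotation, 21 of them one of a protein-coding gene, and 9 have a pseudogene copy (at least 95% identity over at least 50% of the transcript), with 8 copies for Atp5l. Atp5b, Atp5s, Cox8a, Ndufa6, Ndufb10, Ndufaf7, Ndufc1 and Ndufc2 have neither.

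The comparison of SGA360+LPS with LPS asks what the AHR ligand changed beyond LPS. No member was called by edgeR (0 of 68), nor by DESeq2 or limma-voom, against 0.0746% of all genes tested. At an unadjusted p under 0.05 there was 1 member, against 276 of 9389 genes. The median over members was -0.01, and the groups separated without overlap for 10 members that were lower with SGA360+LPS and 5 that were higher, against 19.6% and 19.9% of genes. The 1 member was Cox8a, with 232.3 and 254.5 CPM in LPS and 267.9 and 279.1 CPM in SGA360+LPS, a log2 difference of 0.17 with a 95% interval of 0.01 to 0.33 (unadjusted p = 0.0399, adjusted p = 1 by edgeR). Medians by complex were 0.00 for complex I, -0.03 for complex III, 0.00 for complex IV and -0.02 for ATP synthase, each of which changed sign under at least 1 alternative. The 95% interval of the difference lay within 1.5-fold either way for 59 members and within 2-fold for 66. For Ndufb10 it ran from -0.19 to 0.28, for Ndufa6 from -0.29 to 0.15 and for Atp5b from -0.16 to 0.10.

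Genes that work beside these complexes but fall outside the names moved in different ways. Complex II, which feeds electrons from succinate into the chain, had 4 of 8 genes called lower with LPS and 0 higher, with a median of -0.19. Over all genes tested, the called shares, against which this and the other lists of genes are to be read, were 17% lower and 19.4% higher with LPS, and 15.2% and 17.9% with SGA360+LPS. Its catalytic subunit Sdha had 377.3 and 343.8 CPM in vehicle, 290.1 and 312.1 CPM in LPS, and 294.0 and 308.4 CPM in SGA360+LPS (-0.26, SE 0.074, adjusted p = 0.0202 for LPS). Sdhb (-0.25), Sdhc (-0.26) and the assembly factor Sdhaf4 (-0.82) were called lower as well, and Sdhd was at -0.10 (adjusted p = 0.345). With SGA360+LPS the same 4 genes were called lower (-0.26, -0.28, -0.30 and -0.68), and the assembly factor Sdhaf1 was called higher at 0.44. DESeq2 called 2 of the 8 in each comparison. With LPS, Sdha, Sdhb and Sdhc lost their call without any 1 of the LPS and SGA360+LPS libraries, Sdha and Sdhc also without vehicle replicate 1, and they kept it in 13, 11 and 9 of 19 alternatives. With SGA360+LPS these 3 genes lost it without either replicate of that group.

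Cycs, which encodes the electron carrier cytochrome c, had 152.5 and 143.1 CPM in vehicle, 236.9 and 228.2 CPM in LPS, and 209.5 and 204.8 CPM in SGA360+LPS. It rose by 0.65 (SE 0.072, adjusted p = 5.37e-05) with LPS and by 0.49 (SE 0.072, adjusted p = 0.000493) with SGA360+LPS on the log2 scale. Cyc1, the cytochrome subunit of complex III, was at -0.07 and 0.07, neither called. Atpif1, the inhibitor of ATP synthase, had 158.9 and 155.4 CPM in vehicle, 128.9 and 116.6 CPM in LPS, and 126.3 and 118.2 CPM in SGA360+LPS, and was called lower in both (-0.36 and -0.36). Ucp2, an inner membrane carrier, fell from 747.7 and 722.2 CPM to 476.1 and 511.8 CPM with LPS (-0.57) and to 499.9 and 555.0 CPM with SGA360+LPS (-0.48).

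The largest change was in AA467197, also known as Nmes1, which encodes a small mitochondrial protein related to NDUFA4. It had 14 and 22 counts in vehicle, 491 and 534 in LPS, and 469 and 533 in SGA360+LPS, which is a rise of 4.98 (SE 0.185, adjusted p = 1.95e-08) and of 4.93 (SE 0.186, adjusted p = 2.31e-08) on the log2 scale. Ndufa4 itself had 135.6 and 141.6 CPM in vehicle, 141.0 and 132.1 CPM in LPS, and 143.2 and 140.6 CPM in SGA360+LPS, with overlapping groups and values of -0.02 (SE 0.077) and 0.03 (SE 0.077). The ratio of Ndufa4 to AA467197 counts within a library was therefore 86.6 and 61.9 in vehicle, 2.16 and 2.26 in LPS, and 2.41 and 2.36 in SGA360+LPS.

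**Figure D5:**
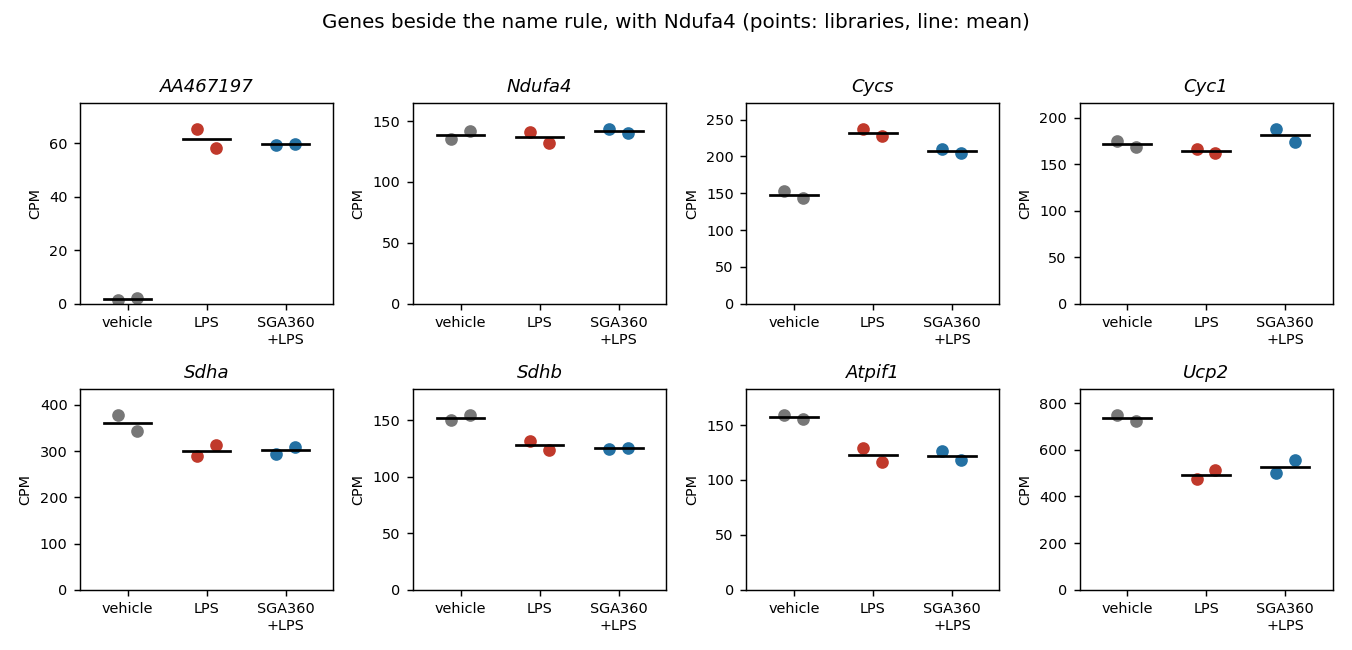
Level in CPM of 7 genes beside the name rule and of Ndufa4, with 1 point per library and a line at the mean of each group (n = 2). AA467197 and Cycs are higher in all treated libraries, Sdha, Sdhb, Atpif1 and Ucp2 are lower, and Ndufa4 and Cyc1 overlap.

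Against the 17% of all genes called lower and 19.4% called higher with LPS, assembly genes of complex IV had 1 of 16 called, Coa5, which was higher (0.61, adjusted p = 0.000295), and with SGA360+LPS Coa5 (0.48) was higher and Coa6 (-0.63) lower. Lrpprc, which stabilises mitochondrial messenger RNA, was at 0.09 (adjusted p = 0.402). Of 3 assembly genes of complex III, Uqcc3 was called lower (-0.61 with LPS and -0.57 with SGA360+LPS), and of 2 of ATP synthase 0 were called by edgeR, DESeq2 or limma-voom, with 0 at an unadjusted p under 0.05 with LPS and 1 with SGA360+LPS. Among 5 tested regulators of mitochondrial biogenesis 3 were called higher with LPS: the nuclear receptor gene Esrra (0.78, adjusted p = 0.00175), the coactivator gene Pprc1 (0.45, adjusted p = 0.00112) and Gabpa (0.39, adjusted p = 0.0142). Esrra (0.80) and Pprc1 (0.56) were called with SGA360+LPS, and Gabpa was at 0.24 (adjusted p = 0.106). Ppargc1b was at -0.23 (adjusted p = 0.621), and Ppargc1a and Nrf1 were listed at 0 as symbols of several rows. Of 7 genes of mitochondrial DNA expression 0 were called by edgeR, DESeq2 or limma-voom in either comparison, with 1 at an unadjusted p under 0.05 in each, and Tfam was at 0.17 (adjusted p = 0.347). Of 69 mitochondrial ribosomal protein genes 6 were called higher and 4 lower with LPS, led by Mrps18b (0.73) and Mrpl34 (-0.67), and their median was 0.01. The calls of AA467197, Cycs, Ucp2, Coa5, Esrra, Pprc1 and Mrps18b held without each library in turn, and that of Mrpl34 with LPS did too. Atpif1 and Uqcc3 lost their call with LPS without LPS replicate 2 and with SGA360+LPS without its replicate 2, Uqcc3 also without its replicate 1. Gabpa and, with LPS, Sdhaf4 lost it without either LPS replicate. With SGA360+LPS, Sdhaf1, Sdhaf4 and Coa6 lost it without either replicate of LPS or of SGA360+LPS, and Coa6 also without vehicle replicate 1.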

How the data were processed

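The 6 libraries of polyA-enriched RNA, 2 per group, were analysed from the read counts per transcript that the authors deposited as whole numbers in a table of 34751 rows. The submitters' processing notes name TopHat2 2.0.13, HTSeq 0.5.4p3 and mm10. Strand use and the treatment of reads shared by transcripts are not given there. Every sample column matched a label (0 unmapped).

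Rows were summed per symbol. In R 4.3.3 with edgeR 4.0.16, genes passing filterByExpr (minimum count 10) received TMM factors and the quasi-likelihood test, with all 3 groups in 1 model (3 residual degrees of freedom). P-values were adjusted by the Benjamini-Hochberg method across the 9389 genes and called under 0.05. Standard errors (SE) were derived from the fold change and its F statistic, and CPM use the TMM-scaled sizes. The common biological coefficient of variation, shared by all comparisons, was 0.0951, or 0.054 in LPS and SGA360+LPS alone. Replicates differed by more than sampling noise in each group, and most in vehicle, on which both comparisons against vehicle rest. The mean chi-square per gene (1 degree of freedom) was 44.4 in vehicle, 6.33 in LPS and 4.23 in SGA360+LPS. The correlation of log2 CPM between replicates was 0.977, 0.994 and 0.995 in the same order. Reads have no molecular identifiers, so counts are not independent molecules.

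The name rule stands with the results, and the complex was read from the symbol. Members and gene lists were chosen with earlier results of these data known. Named genes are called members (up to 6 per complex and comparison), the 2 most abundant per complex, preset key subunits and regulators, and up to 4 called genes per pathway list. Others, among them Ndufs7, Ndufv3, Uqcr11, Cox7b, Cox7c, Cox6c, Atp5d, Atp5e and Ndufaf6, were named after their values were seen. Exon lengths came with the deposited counts, exon overlaps and pseudogene copies from GENCODE M21, and promoters from RefSeq. Alternatives were other scalings, filters, row choices, thresholds and sample sets, DESeq2 1.42.0, limma-voom (limma 3.58.1), a replicate block and leaving out each library. The scripts were tested on simulated data. The values of 1 member are not reported here and its points are left out of the plots by gene.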

Additional observations from a re-analysis of the deposited data

How the results depend on the processing

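With 2 libraries a group, changes under about 1.5-fold are near the limit of these data, and no sign changed for a called member under any alternative. Against vehicle with LPS (7 members called), the count was 13 with upper-quartile factors, 21 with library size only, 2 with DESeq2, 0 at an adjusted p under 0.01 and 3 with only the 2 groups compared. It ranged from 1 to 27 with 1 library left out: 12 and 27 without vehicle replicates 1 and 2, 7 and 1 without LPS replicates 1 and 2, and 2 and 3 without SGA360+LPS replicates 1 and 2. For SGA360+LPS against vehicle (9 called) the counts were 15, 18, 5 and 2 in the first 4 of these settings, and ranged from 0 to 30 with 1 library left out, 2 without SGA360+LPS replicate 1, 0 without its replicate 2 and 30 without vehicle replicate 2. For SGA360+LPS against LPS the count was 0 in all alternatives run. The cause of these differences was not tested. Where 1 library is left out, the lone library is assumed to vary like the other groups.

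Replicate numbers are shared by the groups. Over all genes tested, same-numbered libraries deviated together only weakly, so the numbers were not taken as pairs. The correlation of deviations was -0.00366 for vehicle and LPS, 0.0144 for vehicle and SGA360+LPS and 0.198 for LPS and SGA360+LPS. Among all 292 genes tested of up to 700 bases, however, replicate 1 lay above replicate 2 for 200 in vehicle, 222 in LPS and 210 in SGA360+LPS. Of the 36 members of that length it did so for 27, 33 and 29 in the same order. With the replicate block 11 members were called with LPS, 13 with SGA360+LPS against vehicle and 0 with SGA360+LPS against LPS. The share of all genes called with the block is not given here.

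The log2 ratio of summed CPM of complex I was -0.17 with LPS and -0.15 with SGA360+LPS. It was -0.29 and -0.26 with library size only and -0.25 and -0.23 with upper-quartile factors. Without LPS replicate 2 (-0.0857 with LPS) and without SGA360+LPS replicate 2 (-0.0882 with SGA360+LPS) it was nearer 0. That of complex III (-0.03 and -0.03) was -0.16 and -0.14 with library size only and 0.0462 and 0.0458 without vehicle replicate 1. With LPS it was 0.0470 without LPS replicate 2. That of complex IV (0.0065 and 0.0316) was -0.0836 and -0.0534 with upper-quartile factors and -0.12 and -0.0793 with library size only. It was -0.0618 and -0.0352 without vehicle replicate 2 and, with LPS, -0.0462 without LPS replicate 1. The ratio of neither complex III nor complex IV has a settled sign. That of ATP synthase (0.053 and 0.035) was -0.0375 and -0.0493 with upper-quartile factors and -0.0753 and -0.0772 with library size only, and 0.041 to 0.099 with LPS when 1 library was left out. That of all members (-0.03 and -0.03) was -0.12 and -0.11 with upper-quartile factors and -0.15 and -0.14 with library size only, and lay above 0 without vehicle replicate 1 (0.0314 and 0.0316), without LPS replicate 2 (0.0262 with LPS) and without SGA360+LPS replicate 2 (0.0209 with SGA360+LPS). Counting each named gene under each alternative, the direction and side of the threshold held in 1046 cases with LPS, a call was lost in 78 and gained in 32, and the same counts were 1027, 105 and 25 with SGA360+LPS against vehicle. The sign turned in 1 case of a gene called under the alternative, Cox6c with LPS, which was -0.035 and became 0.23 without vehicle replicate 1.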
